A study of Mus musculus with 43 samples.

Results

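White adipose tissue of ad libitum fed Irs1 knockout mice (KO AL) was compared with that of ad libitum fed wild-type mice (WT AL), gene by gene. A gene entered the comparison if its estimate had the status OK in both groups and reached 1 FPKM (the fragments assigned to a transcript, scaled for its length and for the depth of the libraries) in at least 1 of them. This held for 15734 of the 42349 entries of the table. An entry is 1 gene or several overlapping genes joined by the authors' software, and 658 of the 15734 were joined. The whole study measured 16 groups of 43 libraries from white fat, liver, skeletal muscle and brain, of which 4 groups were white fat.

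WT mice were Irs1+/+ and KO mice Irs1-/-, a deletion carried in every tissue. All mice were female and 15 months old. AL mice always had free access to chow, and DR mice were brought in steps, from 10 weeks of age, to an intake 30% below that of AL mice and stayed on it for 12 months. The labels give 3 KO AL, 2 WT AL, 3 KO DR and 2 WT DR libraries of white fat, and the strain was not named in the labels. The table holds 1 value per group, pooled by the authors over its libraries, with a 95% interval, so no value of a single library could be shown. A difference is given as log2 of KO over WT with a standard error (SE) taken from both intervals, and "rose" or "fell" is used for KO AL relative to WT AL where the two-sided Wald test passed a false discovery rate (FDR) of 10%. The q of a gene is its Wald p adjusted over all tested entries by the Benjamini-Hochberg method. It is an approximation from the authors' intervals, since no exact test can be run on pooled values.

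IRS1 is an adaptor protein that passes the signal of the insulin and IGF-1 receptors on to PI3-kinase and AKT. In white adipocytes insulin promotes glucose uptake through GLUT4, drives the synthesis of fatty acids from glucose through SREBP1c and ChREBP, and restrains the release of stored fat. Adipocytes also secrete hormones such as leptin and adiponectin, and white fat holds macrophages, fibroblasts, vessels and progenitor cells beside the adipocytes.

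The targeted gene went against the labels. Irs1 (GRCm38, chr1:82233101-82291416) was at 2.47 FPKM (95% interval 1.39 to 3.54) in WT AL and at 5.37 FPKM (2.94 to 7.8) in KO AL. The log2 difference was 1.12 ± 0.45 (SE) and did not pass the test (q = 0.509), and the intervals of the groups overlapped. Under DR the order was the other way, with 6.56 FPKM in WT DR and 2.58 FPKM in KO DR. Reads from exons outside a deleted part, if any remain, cannot be told apart from intact transcript in these values, and every direction below refers to the groups as labelled. The related adaptors Irs2 (28.1 and 22.4 FPKM in WT AL and KO AL) and Irs3 (57.3 and 31.5 FPKM) did not pass the test either. Among 57 tested genes within 5 Mb of Irs1, none passed the test, with a median log2 difference of -0.16.

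The fat markers were among the most abundant transcripts of all 4 groups. Adipoq, which encodes adiponectin, was at 4274 FPKM in WT AL, 3809 in KO AL, 7999 in WT DR and 5232 in KO DR. Fabp4, the fatty acid carrier of adipocytes, was at 10117, 6314, 9788 and 7051 FPKM. The study names the depot as inguinal. Of 7 position genes of subcutaneous fat, listed after the values were seen, 4 were tested and 0 passed. All 4 had the lower value in KO AL (median log2 -0.45), among them Hoxc10 at 17.6 FPKM in WT AL and 13.2 in KO AL and Hoxc9 at 3.88 and 2.19. The other members, Tbx15, Shox2 and En1, were under 1 FPKM in both groups, Tbx15 at 0.328 and 0.992. The mesothelial gene Upk3b was at 34.6 and 49.3 FPKM in the same groups. Of 16 tested mesothelial genes, likewise listed after the values were seen, 15 had the higher value in KO AL (median log2 0.63). Only the keratins Krt8, Krt18 and Krt19 among them rose. Of 3 tested position genes of visceral fat, listed in the same way, 0 passed and 2 had the higher value (median log2 0.86). In WT AL the mammary keratins Krt5 and Krt14 were under 1 FPKM, as they were in KO AL.

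Of 15481 entries that could be tested, 161 rose in KO AL (1.04%) and 38 fell (0.245%), 1.29% in all, and 693 had an unadjusted p under 0.05. Over all tested entries, 7004 (45.2%) had the higher value in KO AL. The list counts below are to be read beside this share and the shares called. The other 253 entries were listed at 0 in 1 of the groups and have no log2 value. Of the 199 calls, 187 were at least 2-fold. The median SE over all tested entries was 0.73 on the log2 scale, so a typical entry could not pass with a 2-fold difference. The size of the calls thus partly reflects what the test could detect. The median log2 difference over all tested entries was -0.06. The falling genes were at higher levels: 33 of 38 reached 1 FPKM in both groups, against 82 of 161 that rose, so 79 of the risen entries entered the comparison through KO AL alone. The filter fixed the direction of these 79, and the same holds for every list member below that is under 1 FPKM in 1 group. The intervals of the groups were apart for 38 of 38 fallen and 142 of 161 risen entries. Summed levels of skeletal muscle and epithelial markers were also higher in KO AL, as given below, and their part in the other differences was not tested. The test rests on the authors' intervals and a normal reference. With a t distribution on 3 degrees of freedom, set by the number of libraries, 0 entries passed, the smallest adjusted p was 0.215, and 203 entries had an unadjusted p under 0.05.

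**Figure D1:**
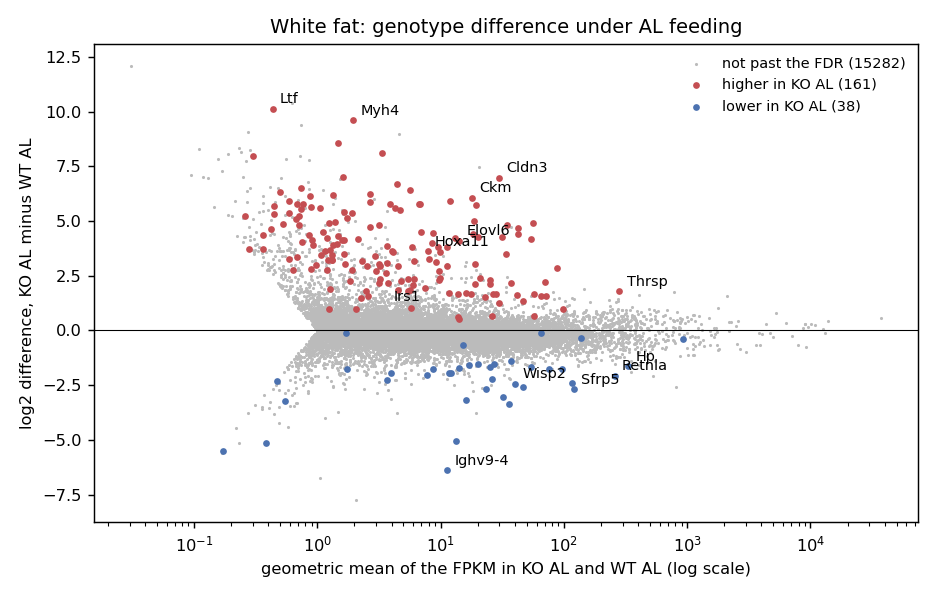
Each point is 1 tested entry of white fat, with the geometric mean of its FPKM in KO AL and WT AL on a log scale (x axis) and the log2 difference, KO AL minus WT AL (y axis). Red points are the 161 entries that rose, blue points the 38 that fell and grey points the 15282 that did not pass the FDR. Most of the largest positive differences lie at low mean levels, and Thrsp, Sfrp5, Retnla and Hp are called at mean levels above 100 FPKM.

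Among genes of fatty acid synthesis Elovl6 and Thrsp rose. The promoters of both are shown with that of Fasn, the central enzyme of the pathway, because the members of this list leaned the same way. The windows are the 250 bases before the RefSeq transcript start (GRCm38.p6), written 5′ to 3′ on the strand of the gene, and capitals mark CCAAT on either strand (ATTGG on the printed strand), the box bound by the factor NF-Y. They are Thrsp at chr7:97417551-97417800 (minus strand), Fasn at chr11:120824548-120824797 (minus strand) and Elovl6 at chr3:129532136-129532385 (plus strand).
Thrsp: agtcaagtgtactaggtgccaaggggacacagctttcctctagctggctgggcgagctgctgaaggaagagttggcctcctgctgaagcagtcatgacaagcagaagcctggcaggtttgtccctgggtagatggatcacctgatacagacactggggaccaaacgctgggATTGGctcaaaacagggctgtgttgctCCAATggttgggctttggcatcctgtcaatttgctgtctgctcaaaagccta
Fasn: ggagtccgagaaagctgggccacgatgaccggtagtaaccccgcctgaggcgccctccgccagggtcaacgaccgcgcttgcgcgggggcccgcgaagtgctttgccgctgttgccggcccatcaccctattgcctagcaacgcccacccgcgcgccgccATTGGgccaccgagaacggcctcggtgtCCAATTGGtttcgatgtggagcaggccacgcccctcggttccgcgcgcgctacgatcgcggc
Elovl6: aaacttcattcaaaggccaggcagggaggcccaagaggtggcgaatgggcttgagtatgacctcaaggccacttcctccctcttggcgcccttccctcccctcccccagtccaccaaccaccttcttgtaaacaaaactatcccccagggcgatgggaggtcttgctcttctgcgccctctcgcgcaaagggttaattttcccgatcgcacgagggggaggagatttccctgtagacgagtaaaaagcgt
Thrsp holds 2 matches, Fasn 3 of which 2 share bases, and Elovl6 none in this window. Of the lipogenic genes 23 matched a RefSeq promoter by symbol and 15 of these held CCAAT, while 33.8% of 32851 promoters of this length, and 37.5% of 27025 genes with at least 1 of them, did. A match is a string of letters and not a measured site.

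Elovl6, which elongates palmitate, was at 3.44 FPKM (2.02 to 4.85) in WT AL against 58.9 (28.9 to 88.8) in KO AL, 17.1-fold higher (log2 4.10 ± 0.47, q = 1.11e-14). Thrsp (Spot14), which promotes lipogenesis, was at 152 FPKM (108 to 196) in WT AL against 523 (228 to 818) in KO AL (log2 1.79 ± 0.46, q = 0.0122). The intervals of the groups did not overlap for either gene. In WT DR and KO DR, Elovl6 was at 126 and 160 FPKM and Thrsp at 858 and 1276 FPKM, so both DR groups lay above both AL groups in level, with intervals that reached down to 0.

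Of 26 tested lipogenic genes, 2 rose and 0 fell, and 24 had the higher value in KO AL, against 45.2% of all tested entries. Their median log2 difference was 0.80, against -0.06 over all tested entries. The large enzymes had wide intervals. Fasn, fatty acid synthase, was at 429 FPKM (0 to 868) in WT AL against 1440 (0 to 5483) in KO AL and did not pass the test. Acly, which makes cytosolic acetyl-CoA, was at 38.4 and 83.1 FPKM, Acss2, which makes it from acetate, at 15.9 and 39.9, and Me1, malic enzyme, at 67.2 and 138, in WT AL and KO AL, none past the test. Scd1, the main desaturase, was near the top of the table at 3943 and 4832 FPKM. The transcription factors of the pathway were closer, with Srebf1 at 122 and 174 FPKM and Mlxipl, which encodes ChREBP, at 17 and 17.4 FPKM. Acot1 (5.25 and 17.8 FPKM, q = 0.118) and the SREBP regulator Insig1 (16.7 and 38.9 FPKM, q = 0.132) came nearest to the threshold among the rest. The summed level of the list was 5487 FPKM in WT AL, 8435 in KO AL, 17181 in WT DR and 14406 in KO DR.

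The markers of fat expansion moved the other way. This list holds genes known to follow fat mass and adipocyte enlargement, and all 11 of its members had the lower value in KO AL, with 2 past the test and a median log2 difference of -0.84. Sfrp5 (chr19:42197971-42202252), a secreted Wnt antagonist made by adipocytes, fell from 304 FPKM (131 to 477) to 47.7 (23.5 to 71.8), 6.38-fold lower (log2 -2.67 ± 0.55, q = 0.000323). Wisp2 (Ccn5), a secreted protein of the Wnt pathway, fell from 93.5 FPKM (50.1 to 137) to 17.4 (8.29 to 26.5) (log2 -2.43 ± 0.50, q = 0.000407). The intervals were apart for both genes. The imprinted gene Mest was at 391 FPKM in WT AL and 152 in KO AL, and Npr3, the clearance receptor for natriuretic peptides, at 133 and 47.7, neither past the test.

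**Figure D2:**
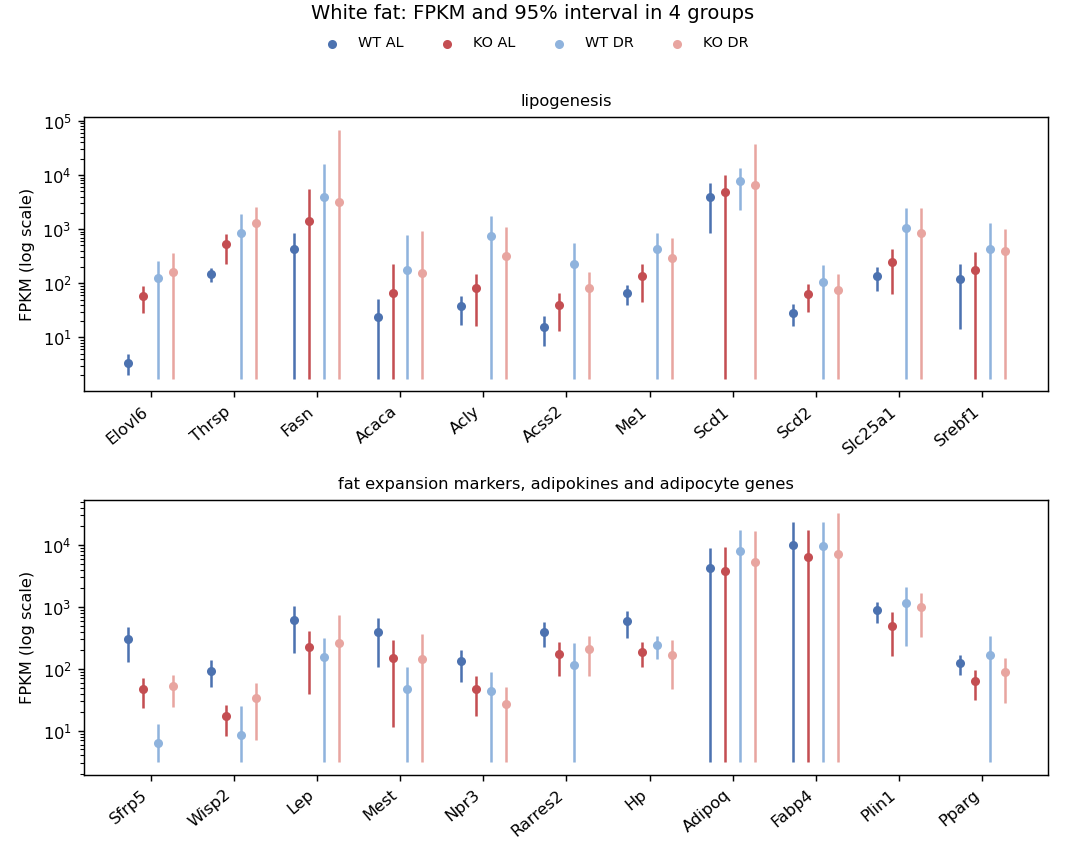
Points are the authors' group FPKM on a log scale (y axis) and bars their 95% intervals, cut at the lower edge of the panel where they reach 0, for genes (x axis) in WT AL, KO AL, WT DR and KO DR. Elovl6 stands at 3.44 FPKM in WT AL and 58.9 in KO AL with bars apart, and Sfrp5 at 304 and 47.7 FPKM, whereas the bars of Fasn, Adipoq and Fabp4 reach 0.

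Adipokines and adipocyte genes leaned down without single calls other than Sfrp5. Of 15 tested adipokines 1 fell, Sfrp5 itself, and 1 had the higher value in KO AL (median log2 -0.58). Lep, which encodes leptin, was at 616 FPKM (178 to 1055) in WT AL against 222 (39.1 to 405) in KO AL (log2 -1.47 ± 0.79, q = 1). Rarres2, which encodes chemerin, was at 396 and 174 FPKM and Retn, which encodes resistin, at 464 and 311. Of 21 tested adipocyte identity genes 0 passed and 18 had the lower value (median log2 -0.61). Pparg, the master regulator of adipocytes, was at 63.8 FPKM in KO AL, 1.93-fold under its WT AL value without passing the test, and Plin1, which coats the lipid droplet, at 886 and 495.

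The rest of lipid and glucose handling held few calls. None of 19 tested genes of the lipid droplet and lipolysis passed (median log2 -0.39), with Pnpla2, which encodes the first lipase of fat release, at 2428 FPKM in WT AL and 1315 in KO AL, and Lipe, hormone-sensitive lipase, at 661 and 405. None of 16 tested genes of triglyceride synthesis passed (median 0.02), nor any of 29 of fatty acid oxidation (median -0.14) or 27 of sterol synthesis (median 0.16). Of 40 tested genes of glucose use 1 rose. It was Pdp2, a phosphatase that activates pyruvate dehydrogenase, at 0.886 FPKM in WT AL, 1.74 in KO AL, 2.53 in WT DR and 2.24 in KO DR (log2 0.98 ± 0.26 under AL, q = 0.0215). Of 43 tested genes of insulin signalling 0 passed (median -0.18), and of 13 of the IGF system 0 passed (median -0.03). In WT AL and KO AL, Insr was at 8.03 and 8.84 FPKM, the glucose transporter gene Slc2a4 at 55.9 and 49.4, Akt2 at 93.1 and 59.1 and Igf1 at 113 and 110.

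Thermogenic genes gave 1 call of 13 tested. Dio2, the deiodinase that activates thyroid hormone in brown fat, rose from 0.115 FPKM (0 to 0.243) to 3.94 (1.74 to 6.15) (log2 5.10 ± 0.90, q = 8.27e-06). Ucp1, the uncoupling protein that defines brown fat, was at 3.13 FPKM in WT AL and 9.87 in KO AL, and Cidea at 11.5 and 34.1, neither past the test (q = 0.779 and 0.449).

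Among 18 tested modulators of Wnt signalling 3 rose and 2 fell, the latter being Sfrp5 and Wisp2 again. Rspo3, a secreted enhancer of Wnt signalling, rose from 0.584 FPKM (0.316 to 0.852) to 4.79 (2.14 to 7.43) (log2 3.03 ± 0.52, q = 2.94e-06). Dkk3 rose from 1.5 to 6.8 FPKM (q = 0.0587) and Nkd2, an intracellular inhibitor of the pathway, from 0.425 to 4.02 FPKM (q = 0.0565).

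Macrophage genes had lower values in KO AL. Of 39 tested members 3 fell and 0 rose, 36 had the lower value and the median log2 difference was -0.88. The list summed to 2640 FPKM in WT AL and 1215 in KO AL. Retnla, a marker of alternatively activated macrophages that adipocytes also express, fell from 529 FPKM (307 to 751) to 126 (65.2 to 187) (log2 -2.07 ± 0.46, q = 0.00149). The chemokine gene Ccl6 fell from 180 to 52.7 FPKM (q = 0.0497) and the IgG receptor gene Fcgr3 from 60.7 to 23.1 (q = 0.0804). The defining genes did not pass singly: Cd68 was at 50 and 22.7 FPKM, Csf1r at 38.5 and 19.5, and Lyz2 at 474 and 238, in WT AL and KO AL. In bulk tissue, fewer cells of a type and less RNA of that gene per cell cannot be told apart. Of 10 tested genes of MHC class II 0 passed (median log2 -0.67), and of 24 tested lymphocyte genes 0 passed and 20 had the higher value (median 0.45).

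Inflammatory and matrix genes held calls in both directions. Among 31 tested acute phase and inflammation genes Hp and Vnn1 fell and Ccl21a rose. Hp, which encodes haptoglobin and is made by adipocytes as well as liver, fell from 585 FPKM (319 to 850) to 188 (106 to 270) (log2 -1.64 ± 0.45, q = 0.031). Ccl21a, a chemokine of lymphatic vessels with near-identical copies in the genome, rose from 3.1 to 26.8 FPKM (q = 0.0215). Among 47 tested members of the matrix list 4 fell and 2 rose, with a median log2 difference of -0.52. Loxl1, which crosslinks elastin, fell from 46.6 to 15.9 FPKM and Pcolce2, which helps to process procollagen, from 23.6 to 6.2. F13a1, the transglutaminase factor XIII, fell from 29.1 to 9.81 FPKM. Mustn1, counted in this list although it is named as a nuclear protein, fell from 44.6 to 14.1 FPKM. Tgfbi, a matrix protein induced by TGF-beta, rose from 37.9 FPKM (26.1 to 49.8) to 114 (70 to 158) (log2 1.59 ± 0.36, q = 0.00189), and the proteoglycan gene Lum rose from 20.9 to 32.7 FPKM (q = 0.0703). The collagens gave 0 calls of 25 tested (median log2 -0.21).

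Stromal, vascular and stress genes gave single calls. Of 23 tested fibroblast and progenitor genes 2 rose, Cd24a and Pdgfra. Pdgfra, the receptor that marks adipocyte progenitors, is joined with the microRNA gene Mir7025 in the table and went from 9.91 to 31.9 FPKM (q = 0.00988). Of 22 tested endothelial genes Sox17, a factor of arterial endothelium, rose from 32.3 to 101 FPKM (q = 0.0748), while Pecam1 was at 57 and 49.8 FPKM in WT AL and KO AL and the list's median log2 difference was -0.59. Of 26 tested heat shock genes Hspa1b rose from 9.09 FPKM (5.62 to 12.6) to 39.3 (27.1 to 51.5) (log2 2.11 ± 0.36, q = 1.8e-06), and the small chaperone gene Hspb7 fell from 25.7 to 7.86 FPKM (q = 0.0835). Hspa1a, a near-identical copy of Hspa1b, was at 5.76 and 13.3 FPKM (q = 0.377), and reads of the pair may have been divided between them. The immediate early genes gave 0 calls of 33 tested and the circadian genes 0 of 18.

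**Figure D3:**
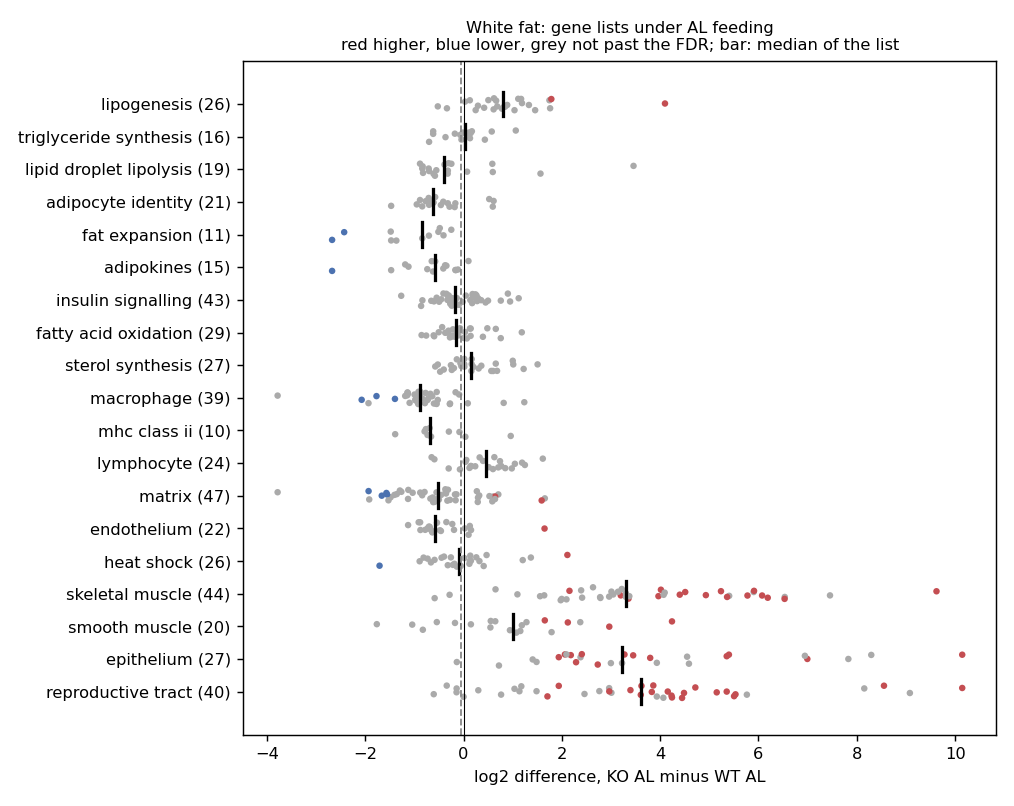
Each point is 1 tested gene of the list named at the left, with the number tested in brackets, at its log2 difference, KO AL minus WT AL (x axis). Black bars are list medians, the dashed line is the median of all tested entries (-0.06), red points rose, blue points fell and grey points did not pass the FDR. Among the lists drawn, the medians of skeletal muscle (3.30), epithelium (3.22) and reproductive tract (3.61) lie farthest to the right, and macrophage (-0.88) and fat expansion (-0.84) farthest to the left. Genes under 1 FPKM in 1 group are drawn only because the other group reached 1 FPKM, which fixed their direction.

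Skeletal muscle genes were a large group among those that rose. Of 44 tested members of this list 16 rose, 0 fell and 42 had the higher value in KO AL. Their median log2 difference was 3.30. Members under 1 FPKM in WT AL, such as Myh4, could enter only with the higher value in KO AL, and they are part of these counts. Summed levels were 640 FPKM in WT AL, 1939 in KO AL, 680 in WT DR and 1143 in KO DR. The actin gene Acta1 alone held 507, 337, 112 and 327 FPKM of these sums, in the same order. The other members together were lowest in WT AL. Myh4, the myosin heavy chain of the fastest fibres, was at 0.0699 FPKM (0 to 0.169) in WT AL, 55 (0 to 137) in KO AL, 20.6 in WT DR and 30.3 in KO DR (log2 9.62 ± 1.48 under AL, q = 1.04e-07). Ckm, muscle creatine kinase, was at 2.2 FPKM in WT AL, 148 (0 to 342) in KO AL, 114 in WT DR and 81 in KO DR. Both genes were thus low in WT AL and above it in the other 3 groups. Several called members encode proteins of fast fibres, with Mylpf, a myosin light chain, at 10.1 and 308 FPKM, Pvalb, a calcium buffer, at 0.915 and 50.1, Tnni2, fast troponin I, at 1.54 and 92.3, and Actn3 at 1.46 and 33.2, in WT AL and KO AL. Acta1, skeletal actin, did not follow them, at 507 and 337 FPKM, and its sequence is close to that of the other actins.

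The intervals of the risen muscle genes were wide. The intervals of the groups were apart for 7 of the 16, and for 5 the KO AL interval reached 0. The same genes were measured in muscle itself: over 44 genes the white fat value was a median of 0.102% of the muscle value in WT AL and 1.04% in KO AL, and over the 16 risen genes 0.0292% and 0.973%, with 0.628% to 4.28% across genes in KO AL. In liver of the same genotype groups, 39 of 43 list members above 0 had the higher value in KO AL, summed to 45.4 FPKM in WT AL and 173 in KO AL, and in brain 36 of 49 did, summed to 234 and 304. Myh4 was at 0.0576 FPKM in WT AL liver and 3.83 in KO AL liver. In muscle 27 of 50 members were higher in KO AL. The part of muscle tissue carried into the samples in these values was not tested.

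Myh4 is also one of 6 muscle genes, of 33 that matched, with a MEF2 site, the binding letters of a muscle transcription factor, in its 250 upstream bases, while 2.92% of 32851 promoters and 3.42% of 27025 genes held one. Its window (chr11:67237562-67237811, plus strand, GRCm38.p6, RefSeq) is shown with the match in capitals.
Myh4: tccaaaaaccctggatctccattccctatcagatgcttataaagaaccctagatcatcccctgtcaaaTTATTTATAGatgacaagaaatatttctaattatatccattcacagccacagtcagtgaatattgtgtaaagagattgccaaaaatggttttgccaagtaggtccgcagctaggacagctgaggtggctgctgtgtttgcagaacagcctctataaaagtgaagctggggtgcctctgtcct
The smooth muscle list gave 4 calls of 20 tested, with 0 fallen and a median log2 difference of 1.01. Cnn1, calponin of contractile smooth muscle, rose from 4.02 FPKM (1.75 to 6.29) to 31.4 (14.7 to 48.1) (log2 2.96 ± 0.56, q = 4.31e-05). Myh11, smooth muscle myosin, rose from 16 to 50.4 FPKM (q = 0.0106) and Actg2, the actin of enteric smooth muscle, from 12 to 52.4 (q = 0.00344). Pcp4, joined with Igsf5 in the table, went from 3.02 to 57.1 FPKM. Acta2 was at 575 FPKM in WT AL and 279 in KO AL and did not pass, so the list was not uniform.

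Many epithelial genes rose as well. Of 44 entries in this list 14 were under 1 FPKM in both groups, 3 were listed at 0 in WT AL and 27 were tested, of which 13 rose and 0 fell (median log2 3.22). Summed levels were 66.0 FPKM in WT AL, 755 in KO AL, 87.1 in WT DR and 315 in KO DR. Cldn3, a tight junction protein, rose from 2.64 FPKM (0 to 5.49) to 337 (194 to 479) (log2 6.99 ± 0.84, q = 1.15e-13), and stood at 2.68 in WT DR and 15.3 in KO DR. The simple keratins rose too, Krt8 from 2.57 to 24.9 FPKM, Krt18 from 2.54 to 35.3 and Krt19 from 11.4 to 55.9. Epcam, the adhesion molecule used to define epithelium, rose from 0.255 FPKM (0 to 0.579) to 10.8 (2.88 to 18.6) (q = 0.000111). Ltf, which encodes lactoferrin, rose from 0.0129 to 14.6 FPKM, a ratio that rests on a WT AL interval reaching 0. Cdh1, E-cadherin, was at 0.0373 and 8.47 FPKM and did not pass, with a WT AL interval of 0 to 0.255. Cldn4, Elf3 and Esrp1 were listed at 0 in WT AL and at 16.9, 8.88 and 3.75 FPKM in KO AL. The intervals of the groups were apart for all 13 risen members. Members under 1 FPKM in WT AL, among them Epcam, Ltf and Cdh1, could be tested only because KO AL was higher.

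A few hormone receptor and positional genes also passed the test. Among 14 tested genes of steroid receptors and growth, Pgr, the progesterone receptor, rose from 0.092 to 3.76 FPKM (q = 0.00203) and Esr1, the oestrogen receptor, from 3.82 FPKM (2.19 to 5.44) to 14.6 (6.5 to 22.7) (q = 0.0153). Of 25 tested Hox genes, which record position along the body, 4 rose and 0 fell (median log2 0.16). Hoxa11 rose from 2.25 to 27.6 FPKM (q = 0.000165), Hoxa10 from 6.5 to 21.2 (q = 0.000134), Hoxb8 from 3.84 to 25 (q = 0.0212) and Hoxd9 from 4 to 8.24 (q = 0.00686). The rest did not pass.

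These genes overlap with a list of genes known from the female reproductive tract, which was written after the values were seen and is given as a description. Of its 50 entries 40 were tested, 20 rose, 0 fell, and 4 were listed at 0 in WT AL. Summed levels were 166 FPKM in WT AL, 713 in KO AL, 243 in WT DR and 483 in KO DR. Msx1, a homeobox gene, went from 1.84 to 40.2 FPKM, Hand2, a progesterone-responsive factor of uterine stroma, from 0.519 to 13.6, and Hsd11b2, which inactivates glucocorticoids, from 0.693 to 31.4. Members under 1 FPKM in WT AL, among them Hand2 and Hsd11b2, could be tested only because KO AL was higher. Prap1 and Pax8 were listed at 0 in WT AL and WT DR, at 73.9 and 13 FPKM in KO AL and at 74.3 and 1.94 in KO DR. Only 1 ovarian gene of 22 in another such list was tested and it did not pass, and the list summed to 3.88 FPKM in WT AL, 5.04 in KO AL, 3.68 in WT DR and 1101 in KO DR, where Cyp11a1, the first enzyme of steroid synthesis, stood at 543 FPKM. Summed levels of the reproductive tract list were 340 and 497 FPKM in liver, 84.7 and 187 in muscle and 266 and 243 in brain, for WT AL and KO AL. Together the skeletal muscle, smooth muscle, epithelium and reproductive tract lists held 48 of the 161 risen entries (29.8%) and none of the 38 fallen, which leaves 113 risen entries outside them. The part of other tissues in the samples in any of these differences was not tested.

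**Figure D4:**
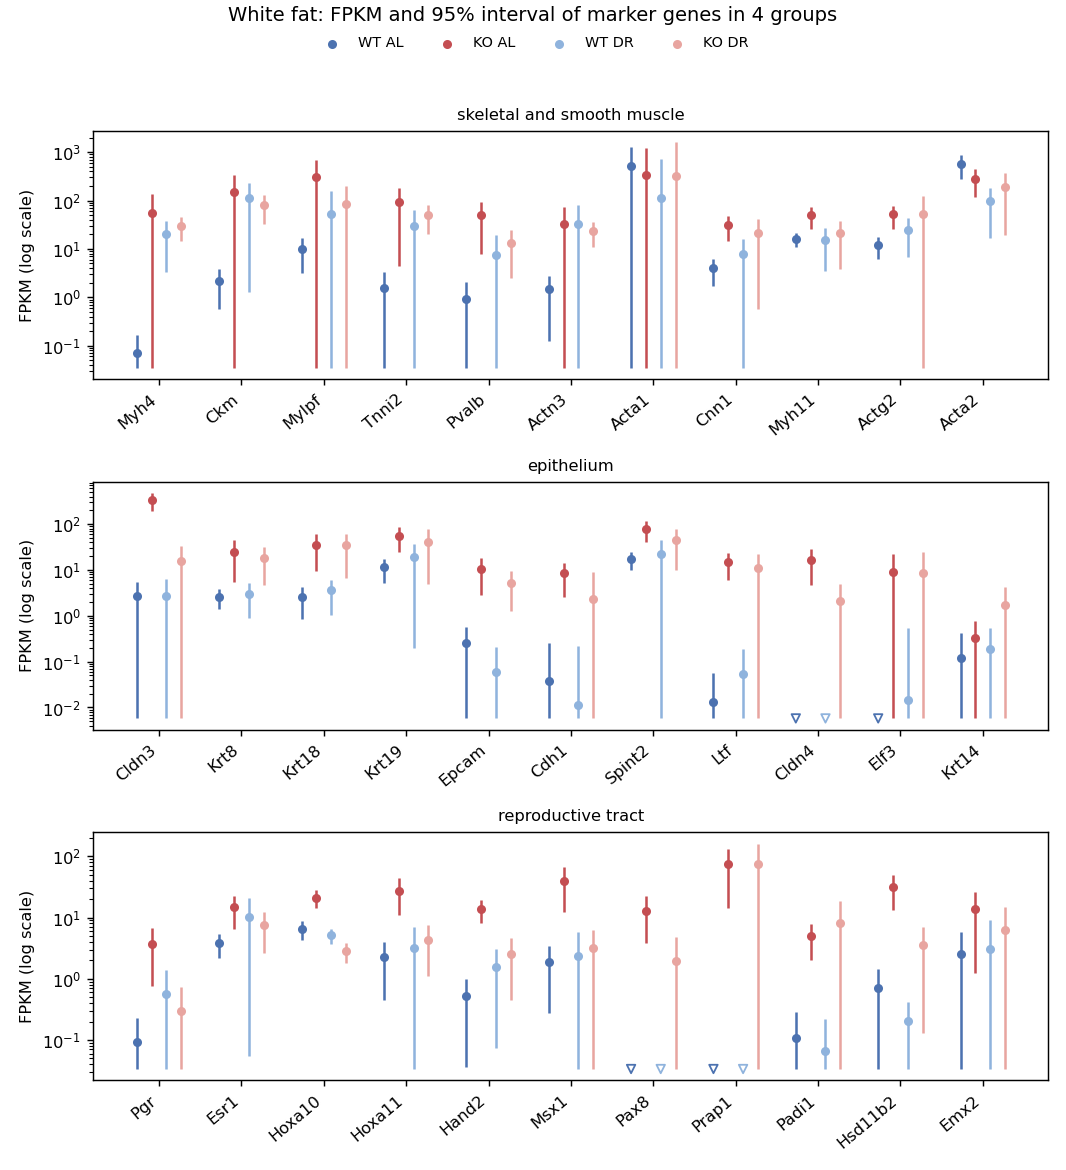
Points are the authors' group FPKM on a log scale (y axis) and bars their 95% intervals, cut at the lower edge where they reach 0, with open triangles for genes listed at 0, for marker genes (x axis) of muscle, epithelium and reproductive tract in WT AL, KO AL, WT DR and KO DR. Cldn3 stands at 337 FPKM in KO AL and under 16 in the other 3 groups, Myh4 is low in WT AL alone, and Prap1 is listed at 0 in both WT groups.

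Immunoglobulin genes moved in both directions. Of 193 tested segments and constant regions 8 rose, 7 fell and 99 had the higher value in KO AL (median log2 0.03). That share is near the 45.2% of all tested entries. The constant region gene Ighg1 rose from 6.47 FPKM (1.49 to 11.4) to 185 (41.5 to 328) (log2 4.84 ± 0.79, q = 6.16e-07) and Ighg3 from 32.6 to 151 (q = 0.0138), while Ighm was at 1551 and 1002 FPKM and did not pass. Variable segments fell and rose singly, with Ighv9-4 at 103 FPKM in WT AL and 1.24 in KO AL, Igkv12-89 at 268 and 50.6, Ighv2-9-1 at 2.65 and 143 and Igkv4-74 at 3.3 and 106. Such segments are close in sequence, so reads may have been assigned among them. The B cell gene Cd79a (6.36 and 10.8 FPKM) did not pass.

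Further calls outside these lists were spread over functions. Among genes that fell, Cdkn1c, an imprinted inhibitor of the cell cycle, went from 96.4 FPKM (72.5 to 120) to 30.6 (20.3 to 40.8) (log2 -1.66 ± 0.30, q = 1.75e-05). Aldh1a1, which makes retinoic acid, fell from 140 to 40.9 FPKM (q = 0.00779), Ehd3, a protein of endosome recycling, from 56.2 to 12.1 (q = 0.000861), and Dock8, an exchange factor for small GTPases in leukocytes, from 15.8 to 3.81 (q = 4.64e-06). Folh1, Dclk3 and Tmem37 also fell, each by more than 3-fold in FPKM, from 8.03, 7.78 and 23.2 to 1.67, 2 and 5.99. Among genes that rose, Ifitm1, an interferon-induced membrane protein, went from 8.4 FPKM (1.42 to 15.4) to 215 (107 to 322) (q = 3.05e-08), Gsta4, which detoxifies lipid aldehydes, from 13.5 to 38.6 (q = 0.0731) and Slc15a5 from 3 to 42.1 (q = 0.0585). Serpina1e, a copy of the alpha-1 antitrypsin family, rose from 4.64 to 88.7 FPKM while its near copy Serpina1a was at 25.1 and 31.3, and Alb, the main liver transcript, was at 204 and 203 FPKM. In all, 5 calls have an SE under 0.1, among them Ighj4 (1049 and 810 FPKM), Gm20721 (68.6 and 62.5 FPKM, named after its values were seen) and Hist1h4i (1.79 and 1.65 FPKM), where a small difference passed through a very narrow interval.

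The large housekeeping lists held almost no calls but were not all centred alike. Ribosomal protein genes had the higher value in KO AL for 75 of 86 tested (median log2 0.41) with 0 calls. Of 54 tested histone genes 51 had the lower value (median -0.97) with 1 call, and these transcripts largely lack the poly-A tail used to capture RNA. Nuclear genes of the respiratory chain gave 0 calls of 85 (median -0.13), and the mitochondrially encoded ones 0 of 10 (median 0.27). All 7 tested red blood cell genes had the lower value in KO AL with 0 calls (median -0.56).

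The same genotype contrast was available in other mice, KO DR against WT DR, which share no library with the AL groups. There 32 of 14820 tested entries were higher in KO DR (0.216%) and 10 lower (0.0675%), 0.283% in all, with 223 at an unadjusted p under 0.05. The intervals were wider on DR, with a median SD of 62.3% of the FPKM in WT DR and 46.3% in KO DR, against 32.3% in WT AL and 36.1% in KO AL. Of the 161 entries that rose under AL, 131 could be tested under DR, and 108 of these (82.4%) had the higher value in KO DR, compared with 56.4% of the 14386 entries tested on both diets. For 32 of the 131 the WT DR value was under 1 FPKM, so that they could be tested only because KO DR was higher. Among the 99 at 1 FPKM or more in WT DR, a limit added after seeing the data, 76 (76.8%) had the higher value in KO DR, against 54% of the 13626 such entries tested on both diets. Of the 131, 8 passed the test in the same direction, 4.97% of the AL list and 25% of the DR list, and 1, Lum, passed in the opposite direction. The 8 were Krt18, Ltf, Padi1, Hsd11b2, Ighg1, Myh1, Hoxd9 and Scarna17, of which Padi1 and Hsd11b2 were named after their values were seen. Ltf, Padi1 and Hsd11b2 were under 1 FPKM in both WT groups, so the filter fixed their direction on both diets. Myh1 was under 1 FPKM in WT AL, which fixed its direction under AL. Krt18 was at 3.61 FPKM in WT DR and 34.2 in KO DR (q = 0.0178), and Hoxd9 at 2.64 and 8.36. Several lists of other tissues also had higher sums in KO DR than in WT DR. These were 680 and 1143 FPKM in WT DR and KO DR for skeletal muscle, 87.1 and 315 for epithelium, 243 and 483 for reproductive tract and 3.68 and 1101 for ovary. Liver markers were not uniform. They summed to 3749 and 4211 FPKM, but only 3 of 23 tested had the higher value in KO DR (median log2 -2.75). The part of genes of other tissues in the shared direction on the 2 diets was not tested.

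Of the 38 entries that fell under AL 33 could be tested under DR, and 14 (42.4%) had the lower value in KO DR, against 43.6% of all entries tested on both diets, with a median log2 difference under DR of 0.33. Only Gm23935, named after its values were seen, passed in the same direction on both diets, with narrow intervals, while 3 passed in the opposite direction, Hist1h4i, Gm20721 and the joined entry Gm24574,Hnrnpa3. Retnla was at 194 FPKM in WT DR and 90.2 in KO DR, Hp at 241 and 168, and Ccl6 at 27 and 34, none past the test. Cdkn1c was at 153 and 60.8 FPKM in the same order (log2 -1.33 ± 0.45, q = 0.701).

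The genotype difference itself differed between diets for 18 of 14386 entries (0.125%), 9 in each direction (0.0626%), by a Wald test of the DR difference less the AL difference at the same FDR, and 220 had an unadjusted p under 0.05. Of these 18, 13 were among the AL calls. Sfrp5 was at 304 FPKM in WT AL, 47.7 in KO AL, 6.26 (0 to 13.1) in WT DR and 52.1 (24.5 to 79.7) in KO DR, which gave a difference between diets of 5.73 ± 1.03 on the log2 scale (q = 5.4e-05). The DR difference alone, 3.06 ± 0.87, did not pass (q = 0.138). KO AL and KO DR had nearly the same level, and the WT groups lay on either side of it. Hoxa10 (-2.53, q = 0.000116), Dock8 (2.87, q = 0.0515) and Lum (-1.40, q = 0.000172) also differed between diets. Lum was at 47.7 FPKM in WT DR and 28.2 in KO DR, so it rose under AL and was lower in the knockout under DR. For Myh4 (-9.07, q = 6.39e-05) and Ckm (-6.57, q = 0.00165) WT AL was the low group, and the DR groups were close to each other. For Elovl6 (-3.75) and Thrsp (-1.21) the difference between diets did not pass (q = 0.8 and 1).

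**Figure D5:**
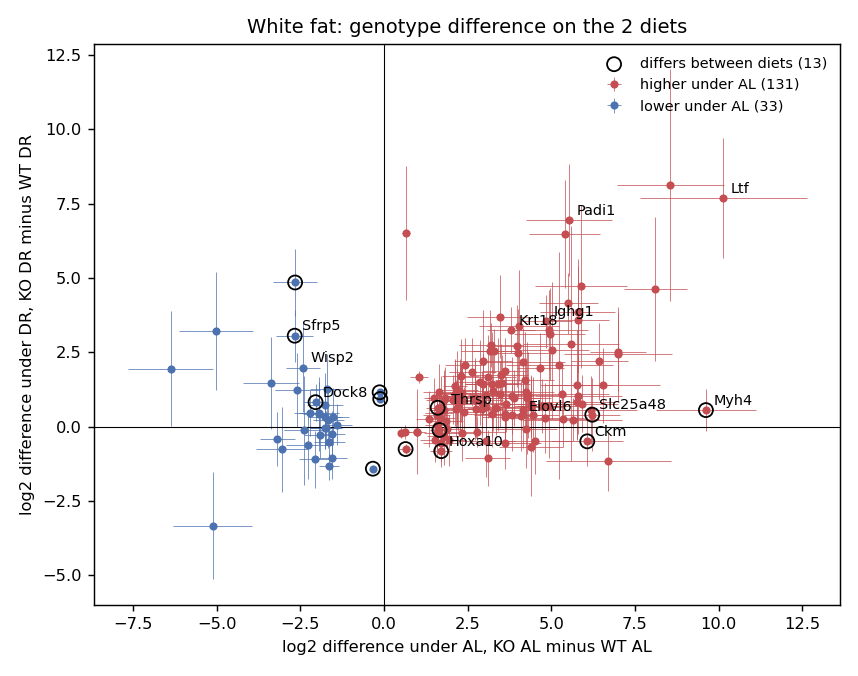
Each point is 1 entry called under AL and tested on both diets, with the log2 difference KO AL minus WT AL (x axis) and KO DR minus WT DR (y axis), and bars of 1 SE. Red points rose under AL (131), blue points fell (33), and rings mark the 13 whose difference between diets passed the FDR. Most red points lie above 0 on the y axis, blue points lie on both sides, and Sfrp5 lies in the upper left.

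WT DR against WT AL shares the WT AL libraries with the comparison described here, so only levels are set side by side. For Sfrp5, Wisp2, Mest and Lep the values in WT DR were 6.26, 8.52, 47.6 and 158 FPKM, against 304, 93.5, 391 and 616 in WT AL and 47.7, 17.4, 152 and 222 in KO AL. For Elovl6, Thrsp and Acly they were 126, 858 and 748 FPKM, against 3.44, 152 and 38.4 in WT AL and 58.9, 523 and 83.1 in KO AL.

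Finally, 172 entries were listed at 0 in WT AL and 81 at 0 in KO AL, and an exact 0 in such a table can also be a failed estimate. Of the former, 64 reached 5 FPKM in KO AL, among them Prap1 (73.9 FPKM), Cldn4 (16.9), Pax8 (13) and Elf3 (8.88). Of the latter, 42 reached 5 FPKM in WT AL, and the immunoglobulin joining segment Ighj3 stood at 566 FPKM. Short noncoding RNAs were found among both sets. No fold change is given for these entries.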

How the data were processed

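PolyA RNA of white adipose tissue was sequenced on an Ion Proton instrument. The authors trimmed reads with cutadapt 1.5, aligned them to GRCm38 with BBmap and ran Cuffdiff 2.2.1 on the groups, and the deposited table gives FPKM per gene and group with a 95% interval pooled over 2 or 3 libraries. Strand use in counting was not given in the sources used here, and the depth per library is unknown. The SD of a group was taken as its upper bound less its FPKM, divided by 2. A two-sided Wald test of the log2 ratio of 2 groups (delta-method SE, normal reference) ran over entries with status OK in both groups, at least 1 FPKM in 1 of them and no 0. Benjamini-Hochberg adjustment ran over all entries tested, at an FDR of 10%. Named genes were Irs1, members of gene lists, and the 25 called entries of largest change in each direction with 1 FPKM in both groups. Members and lists were chosen with earlier results of these data known. Python 3.11.15, numpy 2.4.6, pandas 2.3.3 and scipy 1.17.1 were used. The code of the test was run on simulated data in which each SD was known. That run cannot show whether the normal reference holds for SDs estimated from 2 or 3 libraries.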

Additional observations from a re-analysis of the deposited data

Results flagged for a closer look

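The genotype difference differed between the diets, by a Wald test of the DR value less the AL value, for 18 entries. Myh4 (-9.07 on the log2 scale) and Ckm (-6.57) had a low value in WT AL alone. Slc25a48, a mitochondrial carrier, gave -5.82, with 0.311 FPKM in WT AL, 23.2 in KO AL, 1.4 in WT DR and 1.84 in KO DR. Sfrp5 gave 5.73 and Dock8 2.87, both with their highest level in WT AL. Hoxa10 (-2.53) and Lum (-1.40) had opposite signs on the diets. The joined entry Gm24574,Hnrnpa3 gave 7.51, at 58.8 FPKM in WT AL, 9.3 in KO AL, 5.36 in WT DR and 154 in KO DR, and the variable segment Igkv17-121 gave 7.93. Mat1a, which makes S-adenosylmethionine, gave -5.16 with 0.383 FPKM in KO DR and 6.55 to 9.8 in the other groups. Tmem86a (2.49) and the myelin protein gene Pllp (1.09) had their highest level in KO DR, at 108 and 6.03 FPKM. The noncoding RNAs Snord13 (2.89) and Scarna17 (-0.97) and the entry RP23-174P13.2 (-1.77), whose type is not given, also passed. So did Gm20721 (1.29), Gm23935 (-1.08) and Hist1h4i (1.04), whose intervals are very narrow. Slc25a48, Mat1a, Tmem86a, Pllp, RP23-174P13.2, Gm20721 and Gm23935 were named after their values were seen.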

How the results depend on the processing

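Values below are in the order risen under AL, fallen under AL, higher under DR, lower under DR, called in the same direction on both diets, and differing between diets. The values reported were 161, 38, 32, 10, 9 and 18. An FDR of 5% gave 6 shared calls in place of 9. Calling by intervals that did not overlap gave 203, 68, 46, 14 and 9, with no value for the difference between diets. A t distribution gave 0, 0, 2, 1, 0 and 2, since its heavier tails raise every p. A test of the FPKM difference on the linear scale gave 94, 60, 71, 23, 14 and 46. A pseudocount of 0.1 gave 396, 122, 227, 49, 52 and 88, and one of 1 gave 357, 112, 152, 39, 34 and 77, since both shrink the SE of low genes and add the entries listed at 0. Dividing each SD by the square root of the number of libraries gave 502, 418, 122, 46, 30 and 167, and there Irs1 passed (log2 1.12, higher in KO AL). The cause of the other shifts was not tested. Irs1 stayed higher in KO AL, and no direction turned for the 94 called genes among the 1027 named, where a value was given. Turns among the named genes that were not called were not counted. Centring on the median (-0.06) turned some that lay near 0, such as Hspe1 (log2 -0.05). The share of risen entries among the AL calls was 61% on the linear scale and 54.6% with the divided SD. An SD of at least 10% of the FPKM, chosen after seeing the data, gave 156, 32, 27, 8, 7 and 14. Without the skeletal muscle, smooth muscle, epithelium and reproductive tract lists, also chosen after seeing the data, 113 risen entries were left. No paired analysis was possible because the table holds 1 pooled value per group, and for the same reason no library could be left out.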
